A study of Mus musculus with 16 samples.

Results

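Complex I, the NADH dehydrogenase at the entry of the mitochondrial respiratory chain, was followed through 48 nuclear genes in mouse cerebral cortex. They comprised 6 core subunits, 29 accessory subunits and 13 assembly factors, taken by gene symbol from a table of 55573 gene IDs, and all 48 were found. RNA sequencing covered 16 libraries in 4 groups of 4. Aifm1-KI mice carry a deletion of arginine 200 (R200) in the Aifm1 protein, and Aifm1-WT are their wild-type littermates. Hq-mut are Harlequin mutants from the stock B6CBACa Aw-J/A-Aifm1Hq/J, and Hq-WT are wild-type littermates of those mutants. All cortices were taken near postnatal day 180, without treatment, and the labels give C57BL/6 as the strain of every sample, which is not the stock name of the Hq line. The labels do not say that each library is a separate animal and do not give sex, so each p-value rests on how far these libraries scatter, which may be technical in part.

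Complex I passes electrons from NADH through a flavin and a chain of iron-sulfur clusters to ubiquinone, and couples this to proton pumping across the inner membrane. The matrix arm holds the NADH-oxidising N module and the ubiquinone-reducing Q module, and the membrane arm holds the proton-pumping P module, whose core is encoded in mitochondrial DNA. Accessory subunits surround and stabilise this core, and assembly factors help build the enzyme but are absent from the finished one. Aifm1 encodes AIF, a protein of the intermembrane space that binds CHCHD4, which brings several respiratory-chain proteins into mitochondria, and loss of AIF is known to lower complex I protein in brain. The values here are RNA, not protein or enzyme activity. In bulk tissue fewer cells of a type and less RNA per cell cannot be told apart.

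Total counts ran from 10671580 to 32551594 per library, and the least counted member, Nubpl, had at least 27 counts in every library. Aifm1, read first as a check of the labels, was at 3.75, 2.14, 3.30 and 3.97 CPM (counts adjusted for library size with TMM factors) in Hq-mut 1 to 4 and at 23.2 to 25.4 CPM in Hq-WT. It was at 22.0 to 26.2 CPM in Aifm1-KI, where a deletion of 1 residue is not visible in a count of reads. Markers of cortical excitatory neurons were high in every library, with a summed level of 4431 to 6303 CPM over 8 genes. Markers of other tissue differed between libraries. The 8 striatum markers summed to 461 to 599 CPM in Aifm1-KI 2, Aifm1-KI 4 and Hq-mut 3 and to 151 to 237 CPM elsewhere, and the 6 choroid plexus markers to 5378 CPM in Hq-WT 2 and 2830 CPM in Aifm1-KI 2 against at most 364 CPM elsewhere. The 6 liver markers, which cortex should largely lack, summed to 225 and 254 CPM in Aifm1-WT 1 and 2 and to at most 26.0 CPM in the other 14 libraries.

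The libraries numbered 2 in the Hq line, Hq-WT 2 and Hq-mut 2, stood apart from all others in the level of complex I transcripts. Of the 48 members, 45 were higher in Hq-WT 2 than in each of the 14 libraries outside this pair, and 44 were higher in Hq-mut 2. Only Ndufab1 and Foxred1 were outside these counts in both libraries, while Nubpl was not above the 14 libraries in Hq-WT 2, and Ndufaf4 and Acad9 were not in Hq-mut 2. The share of all genes above the 14 libraries was not counted, so these counts do not show a trait particular to complex I. Other short genes were high in this pair too. Protein-coding genes outside the set and under 800 bases had median ratios to the rest of the group of 1.45 in Hq-WT 2 and 2.002 in Hq-mut 2. The main counts and medians that include this pair are therefore given with and without it.

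Transcripts of complex I subunits stood at higher levels than those of the assembly factors. Over 16 libraries the 35 subunits had a median of 55.8 CPM per kilobase of transcript and the 13 assembly factors 14.3 CPM per kilobase, and over the 14 libraries outside the Hq pair numbered 2 these medians were 49.3 and 13.7. The highest were 3 subunits of the distal membrane arm, Ndufb9 at 112 CPM per kilobase, Ndufb10 at 112 and Ndufb8 at 111, and without that pair Ndufb10 at 103, Ndufb9 at 102 and Ndufb8 at 101. The other levels below are means over all 16 libraries. Among core subunits, Ndufv1, which binds NADH and the flavin, was highest at 73.6 CPM per kilobase and Ndufs3 of the Q module lowest at 22.1. Of the assembly factors, Ndufaf5, a hydroxylase that modifies the core subunit Ndufs7, was highest at 20.3 CPM per kilobase. Nubpl, which delivers iron-sulfur clusters, was lowest of all 48 at 1.13. Ndufab1, the mitochondrial acyl carrier protein that sits in both arms, came out at 4.93 CPM per kilobase and Ndufb2 at 8.08. These 2 values are uncertain because the annotated transcript used for each is 3479 and 4371 bases long. Reads of 7 members, namely Ndufs3, Ndufa12, Ndufa13, Ndufb4, Ndufb6, Ndufb9 and Ndufs5, could also be assigned elsewhere, since at least 20% of their 51-base words occur in another gene, and their levels are uncertain too.

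**Figure D1:**
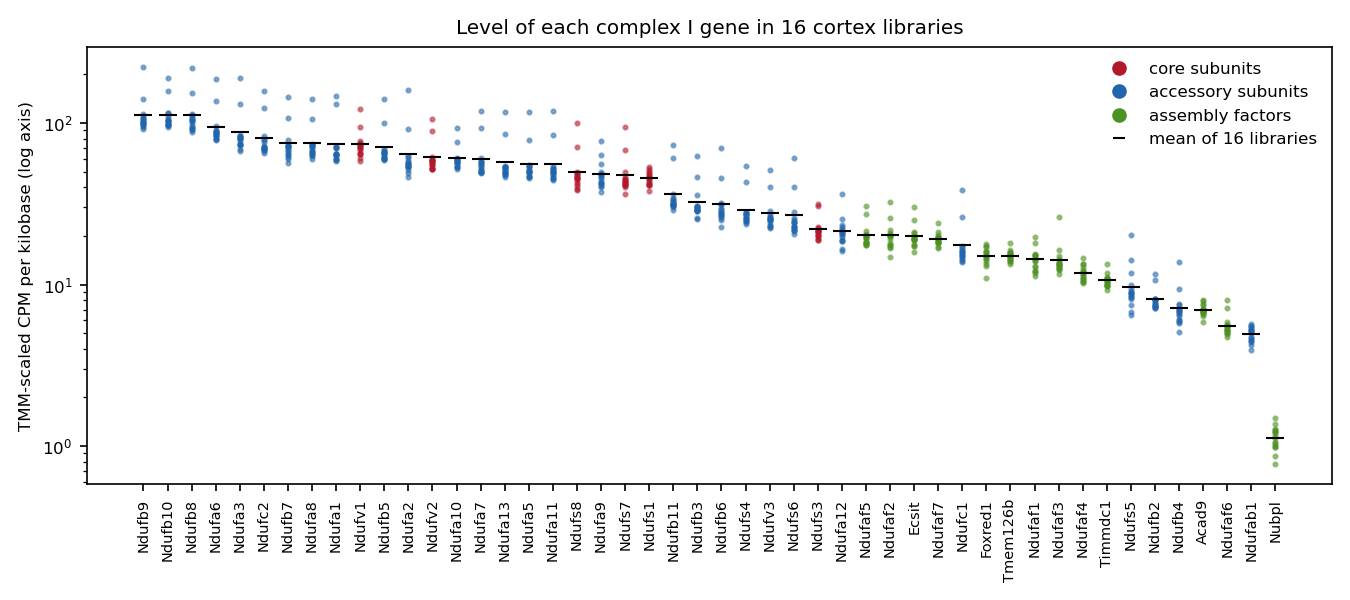
Level of each of the 48 members in CPM per kilobase of transcript (log axis), averaged over all 16 libraries, with core subunits, accessory subunits and assembly factors set apart. Most subunits lie above the assembly factors, and Nubpl, at 1.13 CPM per kilobase, is the lowest member.

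The spread of the members was taken outside the Hq pair numbered 2, and was not set against that of other genes. The coefficient of variation over the other 14 libraries, which span all 4 groups, had a median of 7.17% and ran from 4.88% for Ndufb5, a subunit of the distal membrane arm, to 15.2% for Nubpl. It was 7.53% for core subunits, 7.10% for accessory subunits and 7.20% for assembly factors. The 3 classes had similar spreads. In level the assembly factors stood apart, with a median over 16 libraries of 14.3 CPM per kilobase, against 48.8 for core and 56.1 for accessory subunits.

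In the Hq pair numbered 2 the excess was graded by class. Relative to the mean of the other 3 libraries of its group, Hq-WT 2 had a median ratio of 1.498 for core subunits, 1.55 for accessory subunits and 1.18 for assembly factors. Hq-mut 2 had 1.70, 2.24 and 1.26. The highest ratio in Hq-mut 2 was 3.02, for Ndufa2 of the N module, and the lowest 0.993, for Acad9, an assembly factor of the MCIA complex that builds the membrane arm. Accessory subunits of every module had medians above 1, among them medians in Hq-mut 2 of 2.22 for the distal and 2.32 for the proximal part of the membrane arm. Ndufab1 was the only accessory subunit near 1, at 1.05 in both libraries. Within the core, Ndufs1, the large iron-sulfur subunit of the N module, was at 1.16 in Hq-WT 2 and 1.05 in Hq-mut 2, whereas Ndufs7, which holds the last iron-sulfur cluster before ubiquinone, was at 1.57 and 2.18.

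**Figure D2:**
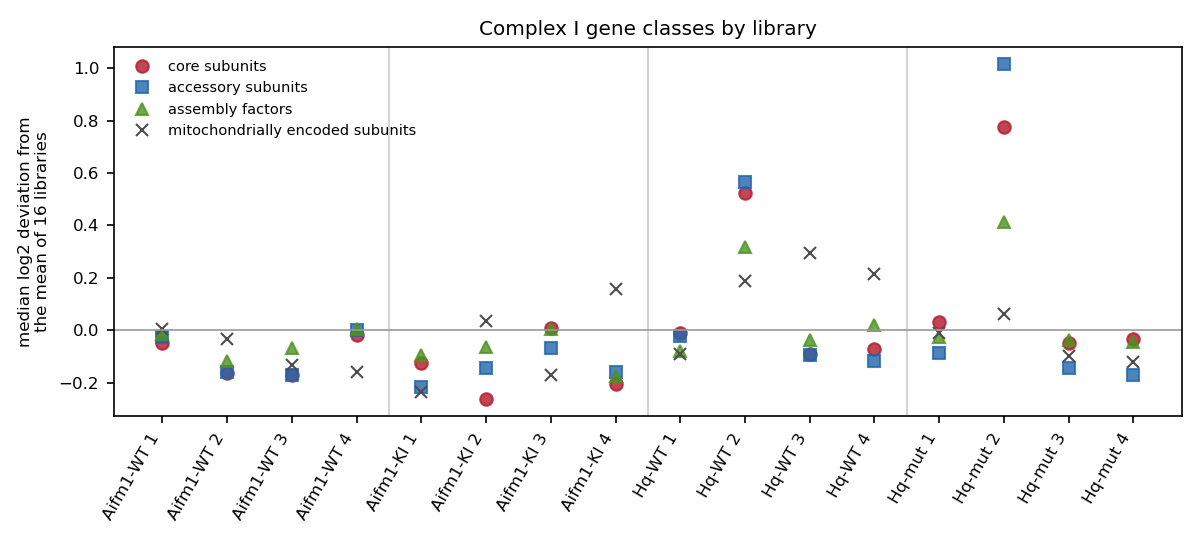
Median log2 deviation of core subunits, accessory subunits and assembly factors in each of the 16 libraries from each gene's mean log2 CPM. Hq-WT 2 and Hq-mut 2 lie above all others, at 0.57 and 1.02 for accessory subunits, and the other 14 libraries lie between -0.26 and 0.03 in all 3 classes.

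Transcript length moved with this excess, and the members differ in length by class. The median length was 763 bases for accessory subunits, 1354 for core subunits and 1676 for assembly factors. Protein-coding genes outside the set that are under 800 bases long (273 genes) had median ratios of 1.45 in Hq-WT 2 and 2.002 in Hq-mut 2. Those from 800 to under 1500 bases (1253 genes) had 1.28 and 1.57, those from 1500 to under 3000 bases (4133 genes) 1.11 and 1.19, and those of 3000 bases or more (6918 genes) 0.933 and 0.858. Members of the same lengths had 1.58 and 2.28 (16 members), 1.46 and 2.10 (16), 1.31 and 1.41 (12), and 1.15 and 1.05 (4). The medians of members were above those of other genes in each length range, and followed the same order. Length and level were not matched within a range. The range of 3000 bases or more holds only 4 members, among them Ndufab1 and Ndufb2, whose transcript lengths are uncertain. Other gene families had ratios above 1 too, with 1.49 and 1.98 for 36 subunits of complexes II to V, 1.41 and 2.03 for 73 cytosolic ribosomal proteins, and 1.35 and 1.63 for 77 mitochondrial ribosomal proteins. The 5 countable complex I subunits of mitochondrial DNA were at 1.03 and 1.05. Astrocyte markers moved in the opposite direction in this pair, with the 6 genes summing to 3075 CPM in Hq-WT 2 and 3102 CPM in Hq-mut 2 against 4622 to 6697 CPM in the other 14 libraries. Oligodendrocyte markers differed within the pair, the 6 genes summing to 1774 CPM in Hq-WT 2 and 4148 CPM in Hq-mut 2, with 1722 to 5682 CPM elsewhere. Inhibitory neuron markers were the highest of each Hq group, at 929 CPM in Hq-WT 2 and 931.5 CPM in Hq-mut 2 over 6 genes. The part of transcript length and of tissue makeup in the excess was not tested.

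**Figure D3:**
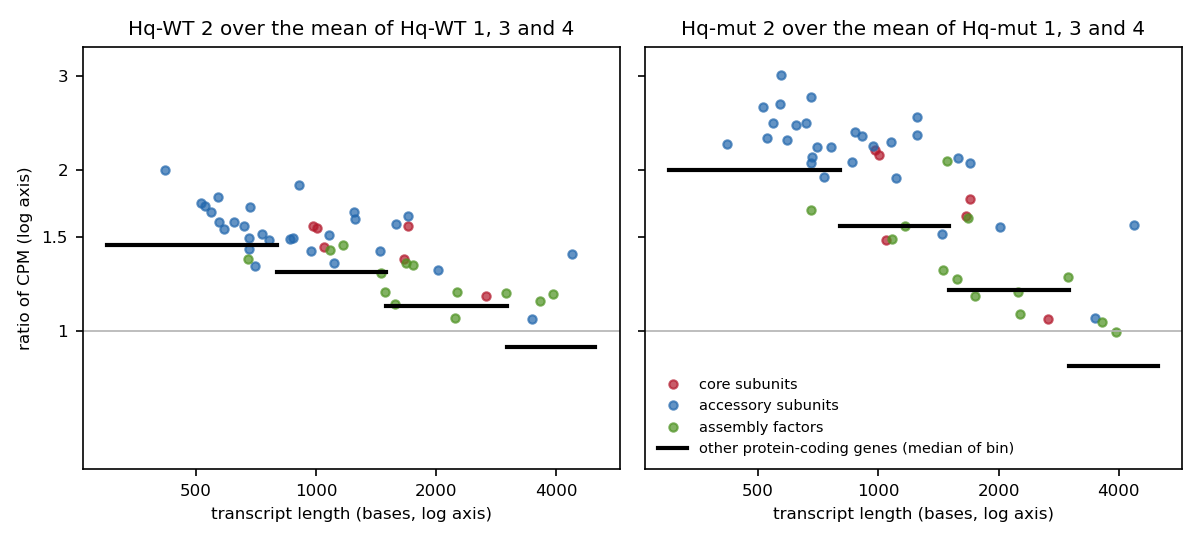
Ratio of CPM in Hq-WT 2 and in Hq-mut 2 to the mean of the other 3 libraries of the same group (log axis) against transcript length in bases, with points for the 48 members and horizontal bars for the medians of other protein-coding genes in 4 length ranges, drawn between fixed ends for the open ranges. Both fall with length, from 1.45 and 2.002 for other genes under 800 bases to 0.933 and 0.858 at 3000 bases or more.

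The Aifm1-KI comparison asks whether the R200 deletion moves complex I transcripts. No member passed the test: 0 of 48 were called at an adjusted p under 0.05 by edgeR's quasi-likelihood test, and 0 of 18383 genes were called at all (0%). DESeq2 and limma-voom called 0 members too, while over all genes DESeq2 called 82 and limma-voom 0. At an unadjusted p under 0.05 there were 1 member above and 1 below Aifm1-WT, or 2 of 48, where the share over all genes was 11.4%. The log2 fold change was negative for 37 of 48 members, with medians of -0.03 for core subunits, -0.04 for accessory subunits and -0.03 for assembly factors, against 0.01 over all genes. These medians are smaller than the spread between libraries, whose standard deviation was 0.10, 0.08 and 0.07 for the 3 classes. The number of positive members was 11 and ran from 4 to 31 of 48 over the other settings tried, the 31 with the trend of gene length removed and without Aifm1-KI 2 and 4, a setting chosen after seeing the data.

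The lowest p among accessory subunits was that of Ndufs6, a zinc-binding subunit of the N module (chromosome 13, 73319838 to 73328542, GRCm38). Ndufs6 was at 12.6, 11.7, 13.9 and 12.8 CPM in Aifm1-KI 1 to 4 and at 15.9, 14.6, 13.7 and 13.9 CPM in Aifm1-WT 1 to 4. The groups overlapped, and the log2 fold change was -0.19 (SE 0.08, adjusted p = 0.426 by edgeR). Ndufa6, an accessory subunit that anchors Ndufab1 to the matrix arm (chromosome 15, 82350140 to 82354322), was at 49.6, 48.5, 50.9 and 46.5 CPM in Aifm1-KI and at 53.3, 52.3, 51.6 and 51.4 CPM in Aifm1-WT. It was the only member whose groups did not overlap, where 4.92% of all genes do not overlap, and its log2 fold change was -0.09 (SE 0.05, adjusted p = 0.498 by edgeR). Ndufb9, which anchors Ndufab1 in the membrane arm, was at 66.0, 64.2, 70.9 and 68.7 CPM in Aifm1-KI and at 79.5, 68.5, 71.0 and 77.8 CPM in Aifm1-WT. Its log2 fold change was -0.14 (SE 0.06, adjusted p = 0.442 by edgeR), and 28.6% of its exon bases also lie in the overlapping gene Gm49356.

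Among assembly factors in Aifm1-KI, Foxred1, a flavoprotein needed for assembly (chromosome 9, 35204206 to 35211055), went the other way. It was at 35.3, 40.1, 38.7 and 38.0 CPM in Aifm1-KI and at 33.3, 35.5, 36.2 and 32.4 CPM in Aifm1-WT, with a log2 fold change of 0.15 (SE 0.06, adjusted p = 0.428 by edgeR). Only Aifm1-KI 1 reached into the wild-type range. Ecsit, a member of the MCIA complex, was at 33.6, 26.8, 32.1 and 29.0 CPM in Aifm1-KI and at 35.2, 32.5, 31.6 and 35.3 CPM in Aifm1-WT. The lowest values were those of Aifm1-KI 2 and 4, the libraries of that line with the highest striatum markers, and the log2 fold change was -0.15 (SE 0.08, adjusted p = 0.497 by edgeR). Without these 2 libraries, Ecsit was at -0.04, Ndufs6 at -0.14, Ndufb9 at -0.12, Ndufa6 at -0.06 and Foxred1 at 0.10, none of them called, and the part of striatal tissue was not tested. In this line Ndufs1 ranged over 101 to 121 CPM, Ndufs3 over 19.6 to 23.4, Ndufs7 over 36.0 to 49.0, Ndufs8 over 38.4 to 48.6, Ndufv1 over 96.0 to 126 and Ndufv2 over 87.6 to 99.5 CPM across the 8 libraries, and mutant and wild type overlapped for each. The core subunits spanned log2 fold changes from -0.12 for Ndufv1 to 0.03 for Ndufs8. Without Aifm1-KI 2 and 4 they spanned -0.04 for Ndufv2 to 0.13 for Ndufs8, with Ndufv1 at -0.02. With all libraries the standard error was 0.07 in the median over the 48 members.

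The Hq comparison asks the same of the Harlequin mutation, fitted with the replicate number as a block because same-numbered libraries of this line deviated together. No member passed here either: edgeR called 0 of 48 members, and 3 of 17969 genes in all (0.0167%), and DESeq2 and limma-voom also called 0 members. At an unadjusted p under 0.05 there was 1 member, Ndufa9, where the share over all genes was 7.97%. The log2 fold change was positive for 40 of 48 members, namely 6 of 6 core subunits (median 0.11), 26 of 29 accessory subunits (median 0.08) and 8 of 13 assembly factors (median 0.07), against a median of 0.01 over all genes.

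Over the 48 members together, this lean rested on 1 pair of libraries. The core subunits had positive medians of 0.05, 0.30, 0.08 and 0.04 in pairs 1 to 4. Their spread between pairs had a standard deviation of 0.11, about as large as their fitted median of 0.11. Ndufs3 and Ndufs7 were each lower in 2 of 4 pairs. The median log2 ratio of Hq-mut to Hq-WT over the 48 members was -0.01 in the pair numbered 1, 0.35 in pair 2, -0.02 in pair 3 and -0.07 in pair 4. Positive members numbered 23, 42, 19 and 18 of 48 in these pairs. Without pair 2, 18 of 48 members were positive and the medians were 0.06 for core subunits, -0.06 for accessory subunits and 0.04 for assembly factors. With Hq-WT 2 kept, Hq-mut 2 left out and no block, 4 of 48 were positive, with medians of -0.14, -0.25 and -0.10. With Hq-mut 2 kept and Hq-WT 2 left out, again with no block, 45 of 48 were positive, with medians of 0.34, 0.34 and 0.20. Within pair 2 the accessory subunits had a median of 0.45, the core subunits 0.30 and the assembly factors 0.16, the same order as their length from short to long.

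**Figure D4:**
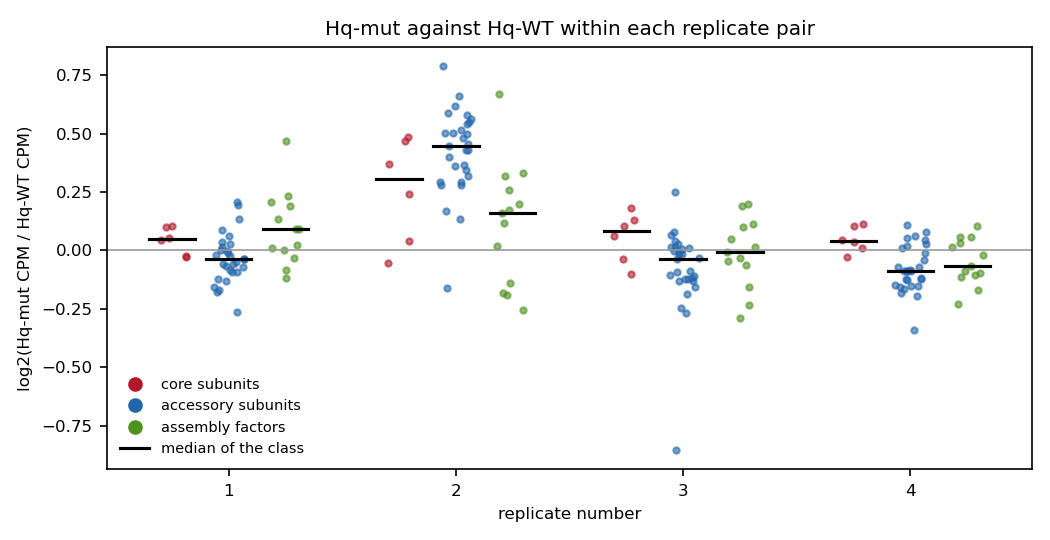
Log2 ratio of Hq-mut to Hq-WT for each of the 48 members within each of the 4 replicate pairs, by class, with the median of each class. The lowest point, -0.85 in pair 3, is Ndufs5, whose reads are partly shared with other genes. Pair 2 lies above 0 for 42 members, and the medians over all members in pairs 1, 3 and 4 lie between -0.07 and -0.01.

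In pairs 1, 3 and 4, the positive members numbered 4, 4 and 5 of 6 core subunits, 9, 9 and 8 of 29 accessory subunits, and 10, 6 and 5 of 13 assembly factors. Ndufv1 (chromosome 19, 4007384 to 4012806) was at 128, 202, 122 and 119 CPM in Hq-mut 1 to 4 and at 119.7, 156, 108 and 116 CPM in Hq-WT 1 to 4. Hq-mut was higher in each pair, by 0.10, 0.37, 0.18 and 0.04 on the log2 scale, and the fitted log2 fold change was 0.17 (SE 0.08, adjusted p = 0.635 by edgeR), or 0.11 without pair 2. Ndufv2, the partner of Ndufv1 that carries an iron-sulfur cluster, was at 105, 178, 99.8 and 98.4 CPM in Hq-mut and at 101, 151, 92.7 and 95.4 CPM in Hq-WT. It was also higher in 4 of 4 pairs, with a log2 fold change of 0.11 (SE 0.07, adjusted p = 0.713 by edgeR). Ndufs1 was at 134, 138, 129 and 131 CPM in Hq-mut and at 124, 143, 124 and 122 CPM in Hq-WT, higher in pairs 1, 3 and 4 and lower in pair 2. Ndufs7 was at 42.8, 92.9, 43.1 and 41.9 CPM in Hq-mut and at 41.5, 67.2, 44.2 and 42.7 CPM in Hq-WT, so that only pair 2 differed by more than 0.05 on the log2 scale. Ndufs8, the other iron-sulfur subunit of the Q module, was at 49.2, 99.99, 46.1 and 45.4 CPM in Hq-mut and at 50.1, 71.3, 42.1 and 45.0 CPM in Hq-WT. Ndufs3 was at 22.1, 33.1, 21.2 and 23.9 CPM in Hq-mut and at 22.5, 32.2, 22.7 and 22.1 CPM in Hq-WT, higher in 2 pairs and lower in 2.

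Of the accessory subunits, Ndufa9, a Q-module protein that lines the ubiquinone site (chromosome 6, 126821721 to 126849136), had the lowest p in the Hq line. It was at 80.1, 112, 69.8 and 71.9 CPM in Hq-mut and at 70.1, 91.7, 58.6 and 66.6 CPM in Hq-WT. Hq-mut was higher in 4 of 4 pairs, by 0.19, 0.29, 0.25 and 0.11 on the log2 scale, though the groups overlapped. The log2 fold change was 0.21 (SE 0.07, unadjusted p = 0.0141, adjusted p = 0.576 by edgeR), and without pair 2 it was 0.19 (adjusted p = 0.243 by edgeR). For Ndufa9 the shift without pair 2 was thus smaller than the SE. Ndufc2, a subunit at the foot of the membrane arm, was at 56.5, 108, 49.0 and 47.4 CPM in Hq-mut and at 54.2, 84.9, 48.5 and 46.8 CPM in Hq-WT, with differences of 0.06, 0.34, 0.02 and 0.02 on the log2 scale. Ndufab1 (chromosome 7, 122085403 to 122101886) was at 13.6, 16.2, 17.6 and 14.8 CPM in Hq-mut and at 15.3, 18.1, 17.5 and 18.7 CPM in Hq-WT. It had the lowest log2 fold change of the set, -0.17 (SE 0.10, adjusted p = 0.693 by edgeR), and was lower in 3 of 4 pairs.

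Among the assembly factors of the Hq line, Ndufaf4, which acts on the Q module (chromosome 4, 24898083 to 24905001), was at 43.6, 44.5, 43.4 and 41.3 CPM in Hq-mut and at 43.5, 53.1, 48.4 and 48.4 CPM in Hq-WT. It was lower in pairs 2, 3 and 4 and at 0.00 on the log2 scale in pair 1, with a log2 fold change of -0.16 (SE 0.07, adjusted p = 0.643 by edgeR). Nubpl was at 4.09, 4.47, 3.12 and 3.43 CPM in Hq-mut and at 2.96, 3.59, 3.02 and 3.18 CPM in Hq-WT, higher in each pair, and its log2 fold change of 0.24 (SE 0.16, adjusted p = 0.721 by edgeR) was the highest of the set. Ndufaf1, the founding member of the MCIA complex, was at 22.1, 28.5, 21.2 and 22.5 CPM in Hq-mut and at 20.8, 26.3, 18.6 and 22.0 CPM in Hq-WT, also higher in each pair (0.11, SE 0.08, adjusted p = 0.762 by edgeR). In all, 8 of 48 members were higher in 4 of 4 pairs, the others being Ndufv1, Ndufv2, Ndufa9, Ndufa10, Ndufc2 and Ndufaf6, and none was lower in 4 of 4. Over all genes 8.77% were higher and 8.86% lower in 4 of 4 pairs. No member separated the Hq groups without overlap, where 1.72% of all genes did.

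No member passed the test of the difference between the effects of the 2 mutations. In the test of the difference, Hq minus Aifm1-KI over 16 libraries, edgeR called 0 of 48 members and 2 of 19129 genes (0.0105%), and DESeq2 and limma-voom called 0 members. Members at an unadjusted p under 0.05 numbered 4, where the share over all genes was 10.4%. Ndufs6 differed by 0.36 (SE 0.15, adjusted p = 0.461 by edgeR), Ndufv1 by 0.29 (SE 0.11, adjusted p = 0.458 by edgeR), Ndufa9 by 0.25 (SE 0.10, adjusted p = 0.458 by edgeR) and Foxred1 by -0.25 (SE 0.09, adjusted p = 0.450 by edgeR). Without Hq-WT 2, whose partner then carries no weight in the blocked fit, these values were 0.21, 0.23, 0.22 and -0.29. The difference was positive for 40 of 48 members with all libraries and for 26 of 48 without the Hq pair numbered 2.

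**Figure D5:**
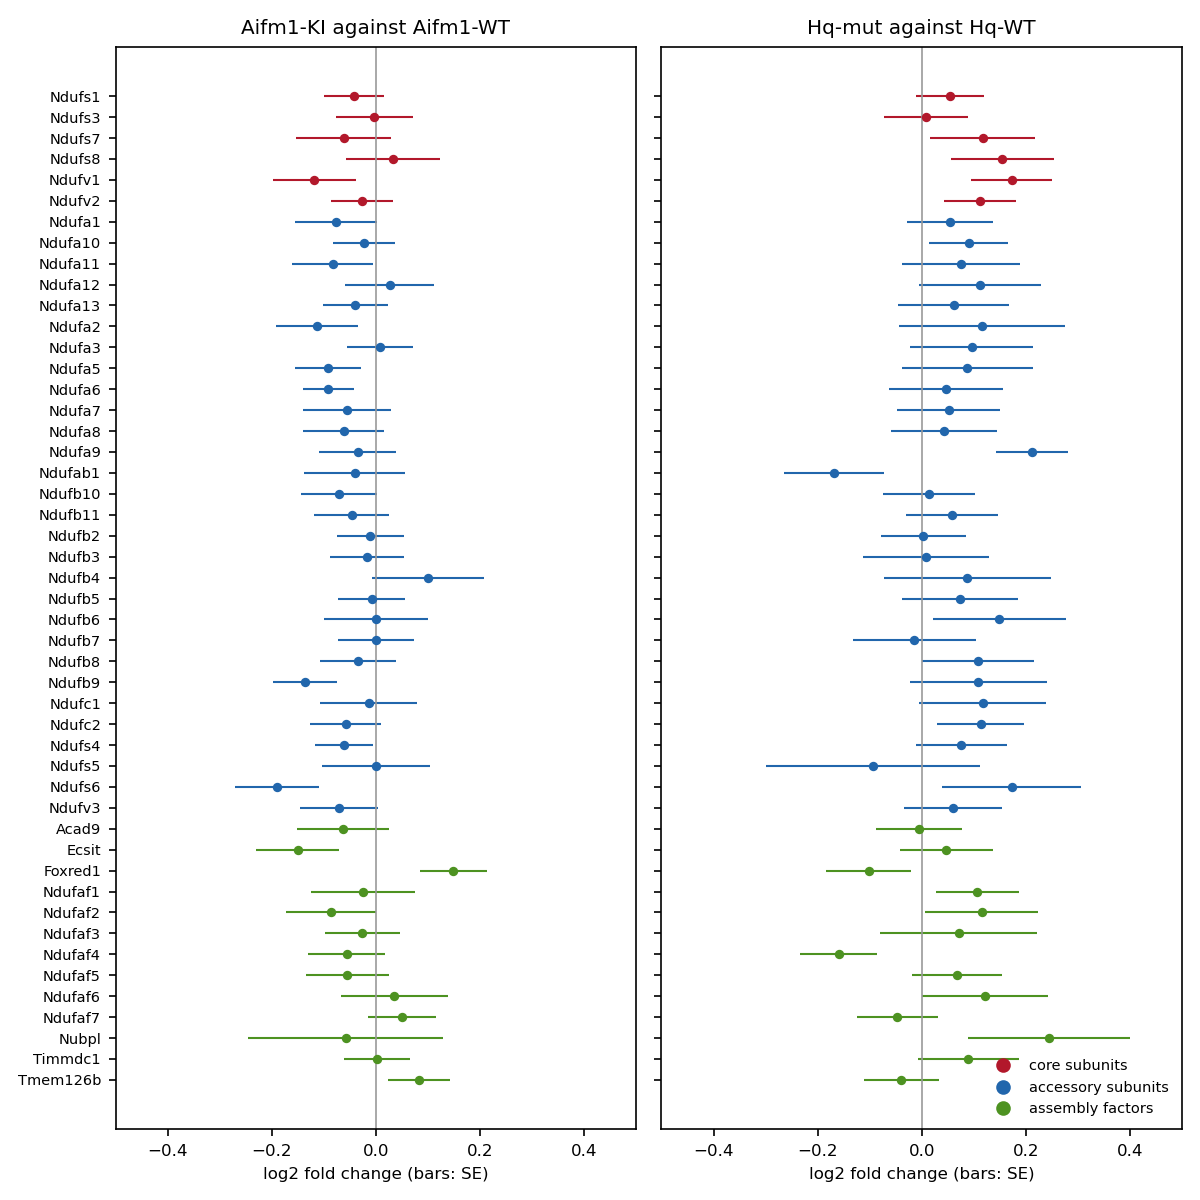
Log2 fold changes with standard errors of the 48 members in Aifm1-KI against Aifm1-WT and in Hq-mut against Hq-WT, by class, with the axis in log2 units. The Aifm1-KI values run from -0.19 for Ndufs6 to 0.15 for Foxred1 and the Hq values from -0.17 for Ndufab1 to 0.24 for Nubpl, and none is called.

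The comparison of the wild types of the 2 lines is one of stocks and not of mutations. Against Aifm1-WT, Hq-WT had a positive log2 fold change in 44 of 48 members, with medians of 0.20 for core subunits, 0.21 for accessory subunits and 0.08 for assembly factors, and 0.00 over all genes. Even so edgeR called 0 of 48 members, against 101 of 18106 genes (0.558%), and DESeq2 and limma-voom called 0 members. At an unadjusted p under 0.05 there were 2 members, where the share over all genes was 12.7%. Without Hq-WT 2, 26 of 48 members were positive and the medians were 0.06, 0.01 and -0.03. The effects given above are within lines, and stock, origin and handling of the lines cannot be told apart here.

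Ndufaf4 had the lowest p between the wild types. It was at 43.5, 53.1, 48.4 and 48.4 CPM in Hq-WT and at 38.9, 37.8, 39.8 and 46.4 CPM in Aifm1-WT, with a log2 fold change of 0.24 (SE 0.09, adjusted p = 0.303 by edgeR), and 0.20 without Hq-WT 2 (adjusted p = 0.312 by edgeR). Ndufb8 of the distal membrane arm (chromosome 19, 44548572 to 44555440) was at 76.7, 104, 77.4 and 66.2 CPM in Hq-WT and at 72.0, 59.5, 61.8 and 71.4 CPM in Aifm1-WT. Its log2 fold change was 0.29 (SE 0.13, adjusted p = 0.387 by edgeR), and 0.15 without Hq-WT 2 (adjusted p = 0.493 by edgeR). Ndufb6, also of the distal membrane arm, was at 21.0, 30.3, 18.5 and 18.4 CPM in Hq-WT and at 20.6, 16.6, 14.99 and 19.3 CPM in Aifm1-WT, with a log2 fold change of 0.30 (SE 0.16). Ndufb5 of the same arm was at 70.3, 108, 72.6 and 71.2 CPM in Hq-WT and at 70.2, 65.6, 65.0 and 72.3 CPM in Aifm1-WT, with a log2 fold change of 0.23 (SE 0.13). In all 3 the highest library was Hq-WT 2. With it left out, Ndufb6 was at 0.11 (adjusted p = 0.719 by edgeR) and Ndufb5 at 0.06 (adjusted p = 0.714 by edgeR). Ndufaf1 was at 20.8, 26.3, 18.6 and 22.0 CPM in Hq-WT and at 20.3, 17.5, 17.2 and 20.4 CPM in Aifm1-WT, with a log2 fold change of 0.21 (SE 0.12). Its value without Hq-WT 2 was 0.12 (adjusted p = 0.602 by edgeR). Only Ndufs1 and Tmem126b separated the wild types without overlap, where 7.43% of all genes did. Ndufs1 was at 122 to 143 CPM in Hq-WT and 110.4 to 121 CPM in Aifm1-WT, and Tmem126b, an MCIA member in the inner membrane, at 33.3 to 40.6 CPM and 30.2 to 33.3 CPM, with Hq-WT 3 barely above Aifm1-WT 4.

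The complex I subunits of mitochondrial DNA had a median below wild type in 3 of 4 Hq pairs, and none was called. Of 7 such genes, all core subunits of the membrane arm, 5 were tested, and mt-Nd3 and mt-Nd4l were not. In the Hq line 5 of 5 had a negative log2 fold change, with a median of -0.21, and edgeR called 0 of them. Of the 5, 3 had an unadjusted p under 0.05, where the share over all genes was 7.97%. By pair, 2, 4, 5 and 5 of these 5 were lower in Hq-mut, with median log2 ratios of 0.04, -0.13, -0.39 and -0.345. mt-Nd2 was at 3574, 3388, 3213 and 3367 CPM in Hq-mut and at 3622, 4513, 4736 and 4473 CPM in Hq-WT, lower in each pair, with a log2 fold change of -0.35 (SE 0.10, adjusted p = 0.523 by edgeR). In Aifm1-KI their median was 0.04, mt-Nd6 having the lowest p (0.16, SE 0.11, adjusted p = 0.612 by edgeR). Between wild types 5 of 5 were positive in Hq-WT, mt-Nd1 by 0.37 (SE 0.10, adjusted p = 0.155 by edgeR). There too 3 of 5 had an unadjusted p under 0.05, where the share over all genes was 12.7%. Since Hq-WT is the reference of the Hq comparison and is also the higher group here, the 2 results share its libraries.

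Of other genes of the pathway, Aifm1 alone was called. It fell in Hq-mut, with a log2 fold change of -2.89 (SE 0.17, adjusted p = 0.00101 by edgeR). Chchd4, the import partner of AIF, was at 34.5, 48.5, 26.1 and 29.6 CPM in Hq-mut and at 29.4, 40.2, 23.9 and 28.7 CPM in Hq-WT, with a log2 fold change of 0.17 (SE 0.08, adjusted p = 0.635 by edgeR). In Aifm1-KI it was also at 0.17 (SE 0.08, adjusted p = 0.441 by edgeR). Of 9 regulators of mitochondrial gene expression 0 were called in any comparison. The lowest p were those of Ppargc1a in Aifm1-KI (-0.16, SE 0.11, adjusted p = 0.584 by edgeR) and of Gabpb1, a subunit of the ETS-family factor GABP, in the Hq line (-0.22, SE 0.09, adjusted p = 0.616 by edgeR). Perm1 had the lowest p between the wild types (-0.56, SE 0.25, adjusted p = 0.387 by edgeR). In a further list of complex I genes outside the 48, 9 were tested and 0 were called. There Dmac1, which acts in building the membrane arm, had the lowest p in the Hq line (0.19, SE 0.10, adjusted p = 0.683 by edgeR), and Ndufa4, once counted with complex I and now with complex IV, the lowest between the wild types (0.31, SE 0.17, adjusted p = 0.472 by edgeR).

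The start-site regions of the members were also read for letters known from promoters of respiratory genes. A link between these letters and the levels, or the excess in the Hq pair numbered 2, was not tested. RefSeq promoter windows on GRCm38.p6, from 250 bases before to 50 after the start, matched 43 of 48 members. The NRF1 motif (GCGCA, any 1 base, then GCGC) was found, on either strand, in 9 of 43 (20.9%, against 5.19% of 27025 genes), CCGGAAG of ETS factors in 7 (16.3% against 9.93%) and AAGATGGCG of YY1 in 6 (13.95% against 1.64%). At least 1 of them was in 21 of 43 members, namely 3 of 5 core subunits, 12 of 27 accessory subunits and 6 of 11 assembly factors. The ETS letters end and the YY1 letters begin with AAG, so these 2 can overlap. The 27025 genes are all those with a RefSeq promoter window, not only those read in cortex, and were not matched for base composition. A match in letters is a description and not a measured binding site. Below are 150 bases upstream of the start, outside annotated exons, for the assembly factor with the lowest p in the Hq line (Ndufaf4, which was not part of the excess in Hq-mut 2), for 1 that was higher in 4 of 4 pairs (Ndufaf1), and for the accessory subunits with the lowest p in the Hq line (Ndufa9) and between the wild types (Ndufb8). Capitals mark a match in the window, to NRF1 in Ndufaf4 and to ETS in Ndufaf1, and the stretches printed for Ndufa9 and Ndufb8 hold none of the 3, although Ndufa9 has a YY1 match elsewhere in its promoter window.
Ndufaf4, chr4:24897933-24898082, plus strand: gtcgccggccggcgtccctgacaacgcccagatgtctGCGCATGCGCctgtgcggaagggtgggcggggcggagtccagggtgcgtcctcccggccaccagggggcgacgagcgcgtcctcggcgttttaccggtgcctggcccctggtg
Ndufaf1, chr2:119662835-119662984, minus strand: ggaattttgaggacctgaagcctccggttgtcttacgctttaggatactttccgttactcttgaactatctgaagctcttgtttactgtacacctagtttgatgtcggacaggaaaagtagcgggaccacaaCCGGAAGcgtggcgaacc
Ndufa9, chr6:126849145-126849294, minus strand: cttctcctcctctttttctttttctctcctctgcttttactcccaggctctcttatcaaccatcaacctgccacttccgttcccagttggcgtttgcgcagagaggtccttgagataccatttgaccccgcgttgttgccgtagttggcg
Ndufb8, chr19:44555443-44555592, minus strand: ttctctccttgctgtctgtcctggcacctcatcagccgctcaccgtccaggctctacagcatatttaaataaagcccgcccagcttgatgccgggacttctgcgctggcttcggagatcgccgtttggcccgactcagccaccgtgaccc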

How the data were processed

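Counts per Ensembl gene for 16 libraries are the authors' deposited whole-number values, not normalized. Per the labels' protocols, RNA was extracted with TRIzol and prepared with a KAPA mRNA-seq kit. Per the series' design text, single-end reads of 51 bases were mapped to mm10 with STAR and counted with htseq-count, and the submitters' processing notes give STAR 2.6. Not given in the sources used here were the version of HTSeq, its annotation and its strand setting. Whether reads of a gene and of its antisense partner were kept apart is therefore not known, and short reads of near-identical copies may be lost.

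Members were matched by symbol to GENCODE M21 on GRCm38, and levels per kilobase used the longest principal coding transcript. For each comparison, edgeR 4.0.16 (R 4.3.3) was run over all genes kept by its default filter, with TMM factors, the quasi-likelihood test and Benjamini-Hochberg adjustment, and called at an adjusted p under 0.05. The SE was taken as log2 fold change over the root of F. DESeq2 1.42.0 and limma-voom (limma 3.58.1), other scalings and filters, a removal of the trend with gene length, and leaving out libraries were alternatives. The scripts were tested on simulated data of the Aifm1-KI and Hq designs. Of 50 genes changed 1.25-fold, 3 (6%) were recovered in each design. At 1.5-fold, 46% were recovered in the Aifm1-KI design and 54% in the Hq design. Each simulation also held 50 genes changed 2-fold and 50 changed 4-fold, which eases the adjusted threshold for all genes. The real comparisons called 0 and 3 genes, so these shares may be too high for them. Changes as small as those estimated for the members would thus mostly go uncalled, and a missing call does not show that a member is unchanged. A count of 0 allows up to 0.0882 to 0.283 CPM (3 counts, counting error only).

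Deviations of same-numbered libraries correlated at 0.36 to 0.49 in the Hq line, and at most at 0.08 with other numbers, so the number was a block there. In the Aifm1-KI line they were -0.02 to 0.08 and no block was used. Named genes were the 6 core subunits and, in each class, the highest and lowest per kilobase. Of accessory subunits and of assembly factors, the 3 with the lowest p in each of the Aifm1-KI, Hq and wild-type comparisons were added. Per further list, the 1 with the lowest p was named. Members, lists and rule were chosen with earlier results of these data known. In the list of further complex I genes, 1 gene is not reported here.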

Additional observations from a re-analysis of the deposited data

Results flagged for a closer look

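In groups of 4 libraries, a library was singled out by Dixon's test at the 95% level when its gap to the nearest other took up most of the range of the group, which chance gives in about 1 in 20 groups. Of 100 groups tested over named members and class medians, 25 met this, all of them as the highest library and all in a library numbered 2 of the Hq line, 9 in Hq-WT and 16 in Hq-mut. The members share these libraries, so the flags are not independent of each other.

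In Hq-WT 2 the values were 143 CPM for Ndufs1, 32.2 for Ndufs3, 67.2 for Ndufs7, 151 for Ndufv2, 22.8 for Ndufs6, 99.0 for Ndufb9 and 108 for Ndufb5. The class medians there, as log2 deviations, were 0.52 for core and 0.57 for accessory subunits. In Hq-mut 2 the core subunits Ndufs7, Ndufs8, Ndufv1 and Ndufv2 were at 92.9, 99.99, 202 and 178 CPM. Its accessory subunits Ndufs6, Ndufb9, Ndufa6, Ndufc2, Ndufb8, Ndufb6 and Ndufb5 were at 34.3, 157, 110.2, 108, 148, 46.4 and 153 CPM. Its assembly factors Ecsit and Ndufaf5 were at 50.4 and 35.8 CPM. The class medians of Hq-mut 2 were 0.78 for core subunits, 1.02 for accessory subunits and 0.41 for assembly factors.

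The effects of the mutations on Aifm1 itself differed by -2.96 on the log2 scale (SE 0.17, adjusted p = 3.43e-06 by edgeR), with Aifm1 lower in 4 of 4 Hq pairs.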

How the results depend on the processing

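No member was called under any of 73 alternatives, 70 planned and 3 chosen after seeing the data, and the lowest adjusted p of a member under any of them was 0.144. Log2 fold changes of the named members changed sign, uncalled, in 48 of 352 fits in Aifm1-KI, 34 of 418 in Hq, 15 of 506 for the difference and 11 of 330 between wild types. The number of genes called over the whole table moved: with DESeq2 it was 82 in Aifm1-KI, 33 in Hq, 19 for the difference and 421 between wild types, and without the filter on low counts 368 in Hq and 560 between wild types. Leaving out 1 library gave 0 to 46 calls in Aifm1-KI (46 without Aifm1-KI 3) and 32 to 231 between wild types (32 without Aifm1-WT 2, 37 without Aifm1-WT 1, 42 without Aifm1-WT 3, 49 without Hq-WT 1, 169 without Hq-WT 2, 231 without Hq-WT 3 and 174 without Hq-WT 4). In Hq it gave 1 to 4 calls. Class medians in Hq, leaving out 1 library or pair, ran from -0.14 to 0.34 for core subunits, -0.25 to 0.34 for accessory subunits and -0.10 to 0.20 for assembly factors, with the lowest without Hq-mut 2 and the highest without Hq-WT 2. The core median was 0.22, 0.26 and 0.25 without Hq-mut 1, 3 and 4. Hq fits that left out 1 library had no replicate block, while those that left out a pair kept it, so these ranges mix 2 designs. With the gene-length trend removed, chosen after seeing the data together with the libraries left out, 157 genes were called between wild types without Hq-WT 2, and the median of assembly factors in Aifm1-KI was 0.044 without libraries 2 and 4. The cause of these shifts was not tested. In Hq without the replicate block 3 genes were called and the medians were 0.16, 0.14 and 0.08 for core, accessory and assembly, and no member's call changed with the pairing. The replicate block called 0 genes in Aifm1-KI and 99 between wild types, where the numbers do not pair libraries.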
